A study of Homo sapiens and Mus musculus with 20 samples.

Results

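Enriched regions were examined at 10 genes whose products are seen by natural killer (NK) cells and T cells on the surface of a target cell. They were MICA, MICB, ULBP1, ULBP2, ULBP3, CD58, ICAM1, CD48, CD80 and CD86. Every region of the 16 human lists that overlapped a gene body or the 10 kb on either side of it was taken (GRCh38). This gave 301 regions out of 805893. Most libraries came from ARP1, a line grown from human multiple myeloma, in 3 KDM6A genotypes. These were wild type (WT), knock out (KO) and JmjD-dead, which carries the allele H1146E in the catalytic JmjC domain. The 3 genotypes each gave H3K27ac, H3K27me3 and input libraries, and WT and KO also gave H3K4me1 and KDM6A. A further KDM6A library came from KARPAS cells, given as multiple myeloma and WT. The HA antibody had an ARP1 library labelled WT, taken here as background, and a library titled HA-tagged that carries a knock out genotype label. The labels do not say whether a mutant line is 1 clone, nor how the tagged protein was introduced. Each group had 1 library, so no difference has a replicate check and none was tested. A difference is instead read beside the share of all 19974 protein-coding genes that passed the same rule.

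KDM6A (UTX) removes methyl groups from H3K27, the residue that carries the repressive mark H3K27me3 or the active mark H3K27ac, and it works with enzymes that place H3K4me1 at enhancers. MICA, MICB and the ULBP proteins are ligands of NKG2D, an activating receptor of NK cells and CD8 T cells, and are commonly induced by cell stress. CD58 binds CD2, ICAM1 binds the integrin LFA-1, and CD48 binds 2B4 (CD244). These contacts hold and activate lymphocytes at the target cell. CD80 and CD86 bind CD28 and CTLA-4 on T cells, and CD86 is known to be expressed by myeloma cells.

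The start of CD48 was the place where KDM6A, HA and KARPAS regions of high rank met. Promoters from RefSeq (GRCh38.p14, 250 bases before to 50 after a listed start, gene strand, 5′ to 3′) are shown for 3 genes to set the CD48 start beside 2 others. All 10 members had a promoter in that table. At CD48 (chr1:160711773-160712072, minus strand) the start lay in a KDM6A region of ARP1 WT, an HA region of the tagged line and a KDM6A region of KARPAS. At CD86 (chr3:122055112-122055411, plus strand, the upstream of 2 listed starts) it lay in a KARPAS region. At CD58 (chr1:116570977-116571276, minus strand) the only HA or KDM6A region over it was one of the background HA list. Capitals mark letters that match one of the motifs searched.
CD48: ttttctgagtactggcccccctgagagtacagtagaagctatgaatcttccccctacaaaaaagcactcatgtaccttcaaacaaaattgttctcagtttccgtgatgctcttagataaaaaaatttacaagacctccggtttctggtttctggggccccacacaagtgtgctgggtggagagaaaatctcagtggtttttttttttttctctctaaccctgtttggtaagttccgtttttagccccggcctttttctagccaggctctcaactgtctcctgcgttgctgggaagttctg
CD86: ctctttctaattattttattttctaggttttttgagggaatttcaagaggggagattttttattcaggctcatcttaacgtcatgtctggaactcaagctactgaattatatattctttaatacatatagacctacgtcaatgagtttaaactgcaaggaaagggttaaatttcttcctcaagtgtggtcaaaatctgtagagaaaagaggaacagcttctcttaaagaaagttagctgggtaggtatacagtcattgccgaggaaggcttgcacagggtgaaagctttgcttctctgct
CD58: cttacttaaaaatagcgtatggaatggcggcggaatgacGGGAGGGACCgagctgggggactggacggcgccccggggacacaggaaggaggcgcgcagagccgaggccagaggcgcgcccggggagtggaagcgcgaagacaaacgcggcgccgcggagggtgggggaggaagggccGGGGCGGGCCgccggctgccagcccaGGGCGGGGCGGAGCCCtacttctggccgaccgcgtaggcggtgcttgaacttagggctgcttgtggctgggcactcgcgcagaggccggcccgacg
The motifs, searched on both strands, were GGAANNTCC (a strict NF-kB form), a looser NF-kB form, the heat shock element, GGGCGG (GC box), CCAAT, the interferon response element, CACGTG (E-box), TTTCGCGC (E2F) and CCGGAAGT (ETS). The CD48 promoter and the upstream CD86 promoter held none of these strings. Their GC content was 44.7% and 37%, against 71.7% at CD58. The capitals in CD58 come from the looser NF-kB form (4 matches) and GGGCGG (3 matches, some overlapping the former), held by 66.6% and 56.3% of 22132 promoters of the same length. GGAANNTCC, held by 4.54% of promoters, had 1 match among the members, in ICAM1. A match is a string of letters and not a binding site.

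**Figure D1:**
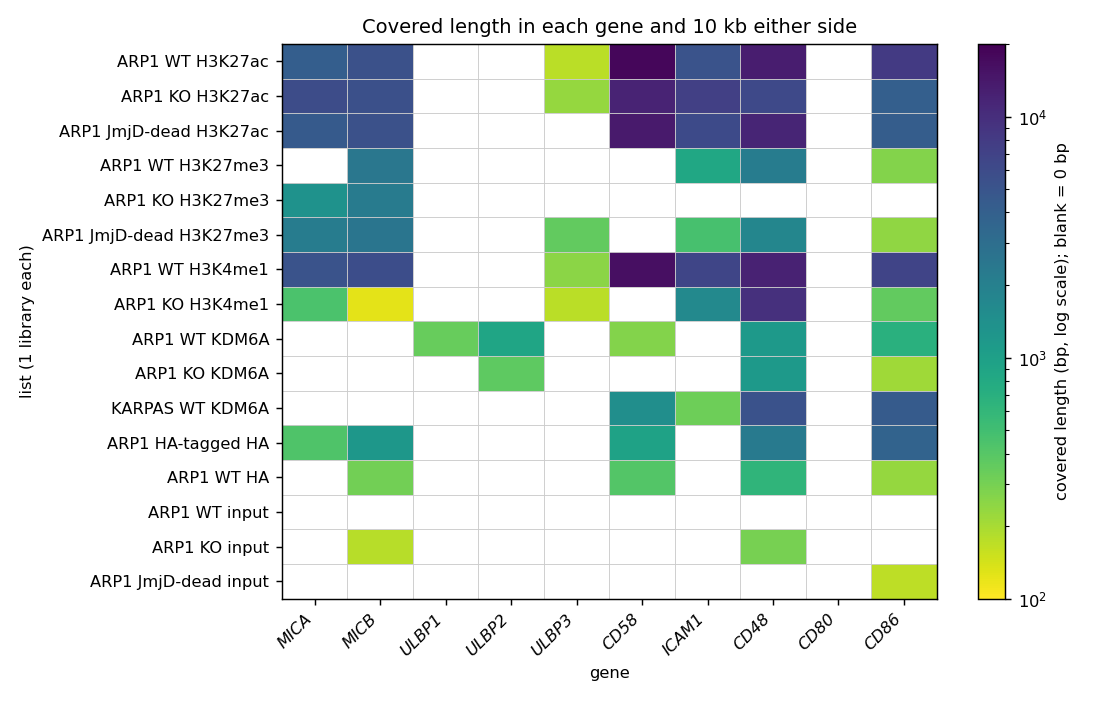
Base pairs covered by regions (colour, log scale, blank for 0) in each gene and 10 kb either side, for 10 genes (columns) and 16 human lists of 1 library each (rows). CD80 is blank throughout, ULBP1 and ULBP2 hold regions of the KDM6A antibody only, and CD48 and CD86 hold regions in 12 of the 13 lists that are not input.

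The members fell into genes with much signal and genes with nearly none. CD80 held no region in any of the 16 lists. ULBP1 and ULBP2 held no region of a histone mark, and ULBP3 held at most 1 short region per list. The other 6 genes held H3K27ac in all 3 genotypes. In ARP1 WT, H3K27ac marked 7 of the 10 members, against 74.3% of all genes. In KO it marked 7 (76.5% of genes) and in JmjD-dead cells 6 (74.6%), so these counts lay near the background. Of the 9 plasma cell markers, all held H3K27ac in each genotype, among them IRF4, SDC1 and TNFRSF17. H3K27ac also marked 4 of 7 T and NK markers, 3 of 5 B cell markers, 3 of 5 myeloid markers and 4 of 5 epithelial and stromal markers in WT, with CD3D, CD8A, MS4A1, CD22 and CD163 at 0 in every genotype. The H3K27ac libraries held 25.6 to 31.2 M (mega) fragments after the authors' filtering and the H3K27me3 libraries 5.03 to 10.4 M. The H3K4me1 libraries held 25.6 and 34.0 M fragments, the HA and KDM6A libraries 11.9 to 37.4 M tags, and the inputs 0.223 to 0.725 M fragments. Input regions were listed at 0 members in WT (10.6% of genes), 2 in KO (22.1%) and 1 in JmjD-dead cells (6.85%).

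H3K27ac at CD48, CD86 and CD58 covered less of the gene in KO than in WT. A gene was called when the covered length differed by at least 1.5 times and reached 500 bp in one of the lists. By this rule 3 of the 6 members that could be called covered less in KO, where 6.68% of 14597 genes did. None covered more, where 14.3% did. In JmjD-dead cells 1 of 6, CD86, covered less (7.44% of 14291 genes), and none more (6.30%). Over the genes with H3K27ac in WT that could be called the median ratio was 1.11 in KO (14347 genes) and 0.985 in JmjD-dead cells (14178). The KO list as a whole was no shorter, with 73.6 Mb covered from 25.6 M fragments against 71.0 Mb from 30.8 M in WT and 69.9 Mb from 31.2 M in JmjD-dead cells. The WT library is shared by both comparisons.

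CD48, the ligand of 2B4, had 13195 bp of H3K27ac in WT against 6224 in KO and 11580 in JmjD-dead cells. The KO length was thus 0.472 of the WT length and the JmjD-dead length 0.878. Fold enrichment, −log10 q and rank are each relative to their own library and list, so set side by side they describe the lists and measure no change. The mean of the authors' fold enrichment over the covered length was 57.7 in WT against 5.86 in KO and 39.3 in JmjD-dead cells. The best WT region, on chromosome 1 at 160706898 to 160713694, spanned the gene start with a −log10 q of 437 and ranked 624 of 69127. In JmjD-dead cells 1 region covered 6213 of its 6797 bp, with a −log10 q of 220 and rank 2777 of 74063. In KO the same stretch was broken into 4 regions that covered 4354 bp, the best with a −log10 q of 18.6 and rank 20664 of 76242. No KO region covered the start itself, but 2 overlapped the promoter. They lay close on either side of the start, 15 bp inside the gene and 134 bp upstream. A further region inside the gene, at 160681849 to 160686764, was 4916 bp long in WT and 4724 bp long in JmjD-dead cells, and KO regions covered 1862 bp of it. It also overlaps the record LOC124904439.

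**Figure D2:**
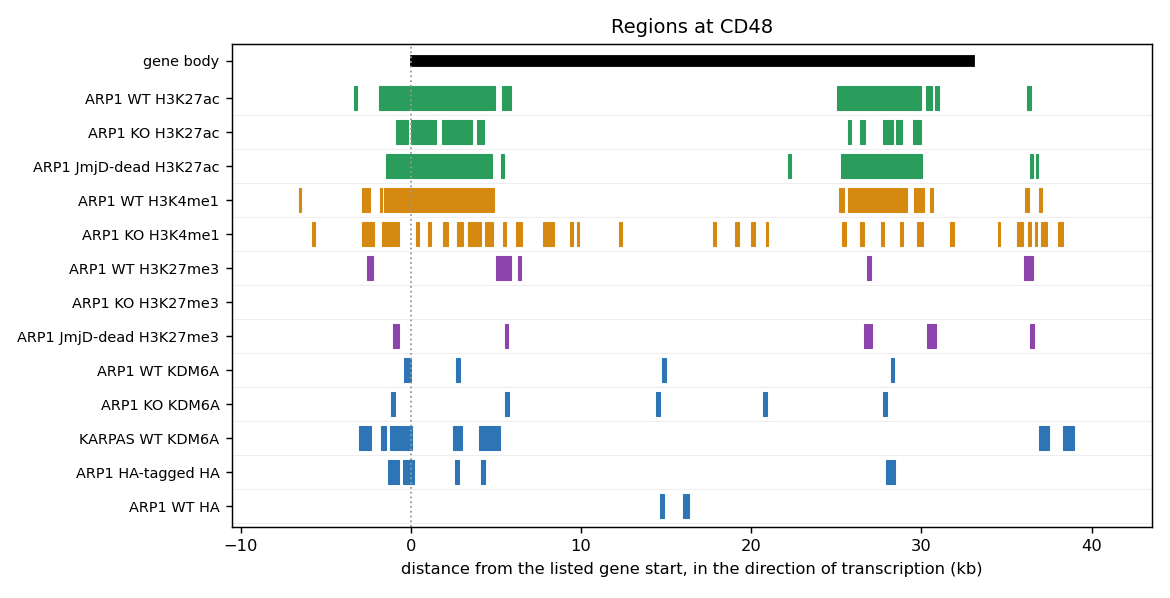
Regions at CD48 in 13 lists (rows), drawn to scale against the distance from the gene start in kb, with the gene body in black and the start dotted. The 6797 bp H3K27ac region over the start in WT is 1 region in JmjD-dead cells and 4 regions in KO. Regions of KDM6A in WT and KARPAS and of HA in the tagged line cross the start.

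CD86, the costimulatory ligand, had 8198 bp of H3K27ac in WT against 4020 in KO and 4156 in JmjD-dead cells. Here both mutants lay at about the same total length, 0.490 and 0.507 of WT, but split differently between places. The mean fold enrichment was 19.5 in WT against 9.13 in KO and 8.24 in JmjD-dead cells. The best WT region, on chromosome 3 at 122073982 to 122076065, ended 1719 bp upstream of the downstream start of CD86, with a −log10 q of 71.2 and rank 11408. It was matched by a KO region of 1763 bp (−log10 q 21.1, rank 19870) and a JmjD-dead region of 774 bp (−log10 q 16.6, rank 25645). The longest WT region, 4607 bp inside the gene, had a −log10 q of 68 and rank 11722. Of it KO covered 2163 bp and JmjD-dead cells 3382 bp, the opposite order. An intronic or exonic place cannot be given, as the gene table has no exons. Neither listed CD86 start was covered by H3K27ac in any genotype. Of the 9 WT regions at CD86, 7 were short and had no region in either mutant.

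CD58, the ligand of CD2, had the longest cover of the members, 18318 bp in WT against 11892 in KO and 13766 in JmjD-dead cells. The KO ratio of 0.649 passed the 1.5 limit narrowly and the JmjD-dead ratio of 0.752 did not pass it. Its mean fold enrichment was 26.3, 14.3 and 20.1 in the same order. The best WT region, on chromosome 1 at 116566371 to 116571953, spanned the start and ranked 4178 with a −log10 q of 184. The best region there was 2291 bp long in KO (−log10 q 113, rank 6266) and 3375 bp in JmjD-dead cells (−log10 q 130, rank 6361). The start was covered in all 3 genotypes. Of that WT region KO covered 3141 bp, and of a 7488 bp region inside the gene KO covered 4638 bp and JmjD-dead cells 5858 bp. The window also holds part of the neighbouring gene IGSF3.

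MICA, MICB and ICAM1 had as much H3K27ac in KO as in WT or more, without reaching 1.5 times. MICA, an NKG2D ligand, had 4098 bp in WT against 5862 in KO and 4464 in JmjD-dead cells, and its KO ratio of 1.43 lay just under the limit. The listed start of MICA lies inside the gene record and was covered in each genotype. The best region lay upstream of it, 2240 bp away in WT, and ranked 9273, 6240 and 8284. MICB had 5350, 5538 and 5319 bp, nearly all in 1 region over the start that ranked 3015, 2814 and 1632. ICAM1, the LFA-1 ligand, had 5207, 7265 and 6078 bp. Its best region lay beyond the end of the gene at ICAM4 and ICAM5, so most of this length need not belong to ICAM1. The region nearest the ICAM1 start was 1305 bp long in WT against 1935 in KO and 1321 in JmjD-dead cells, with ranks 23866, 12738 and 17782. It covered the start in KO, and it ended 83 bp upstream in WT and 69 bp upstream in JmjD-dead cells. MICA and MICB resemble each other and vary between people, so the assignment of reads between them is uncertain.

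ULBP3 held 1 H3K27ac region of 172 bp in WT (−log10 q 2.41, rank 66639) and 1 of 233 bp in KO (−log10 q 4.63, rank 47118) that did not overlap, and none in JmjD-dead cells. Both were under 500 bp and were not called. All regions counted together, 15 of the 32 WT regions at the members (46.9%) had no KO region, against 30.1% of all WT regions. For JmjD-dead cells this was 12 of 32 (37.5%), against 27.7%. CD86 and CD48 held 7 and 5 of the 15, and 7 and 3 of the 12. MICA, MICB and ICAM1 held none of either, so both member shares rest mostly on CD86 and CD48. In the other direction 7 of 40 KO regions (17.5%, against 35.2%) and 4 of 33 JmjD-dead regions (12.1%, against 29.1%) had no WT region. Regions of 1 gene are not independent.

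**Figure D3:**
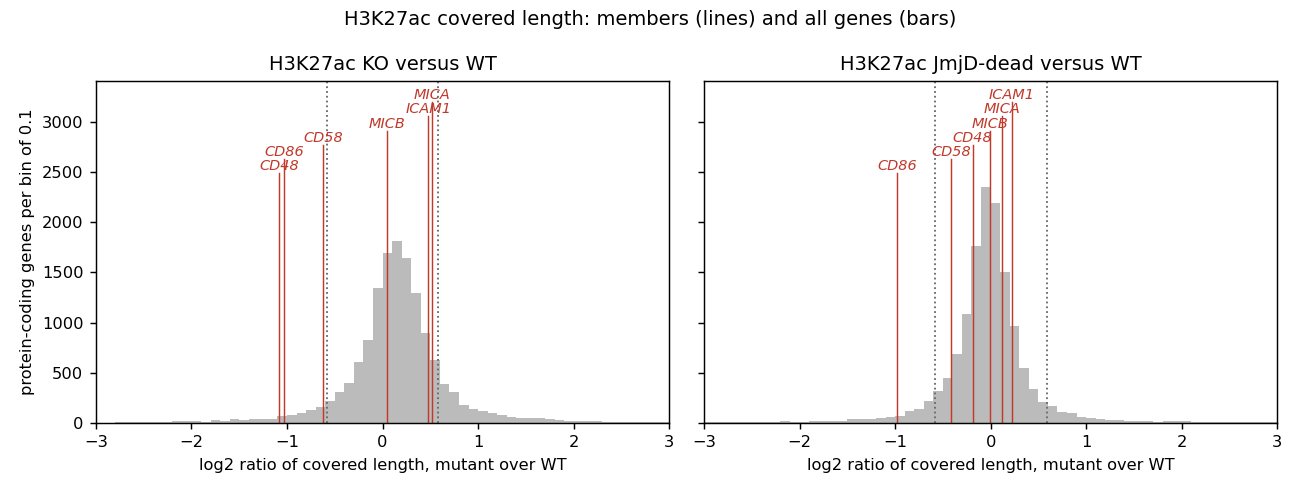
The log2 ratio of H3K27ac covered length, KO over WT (left) and JmjD-dead over WT (right), for protein-coding genes with cover in both lists whose ratio lies within the axis (grey bars, genes per bin of 0.1) and for the 6 members that could be called (red lines). Dotted lines mark 1.5 times in each direction. CD48, CD86 and CD58 lie left of the limit in KO, and only CD86 does in JmjD-dead cells.

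**Figure D4:**
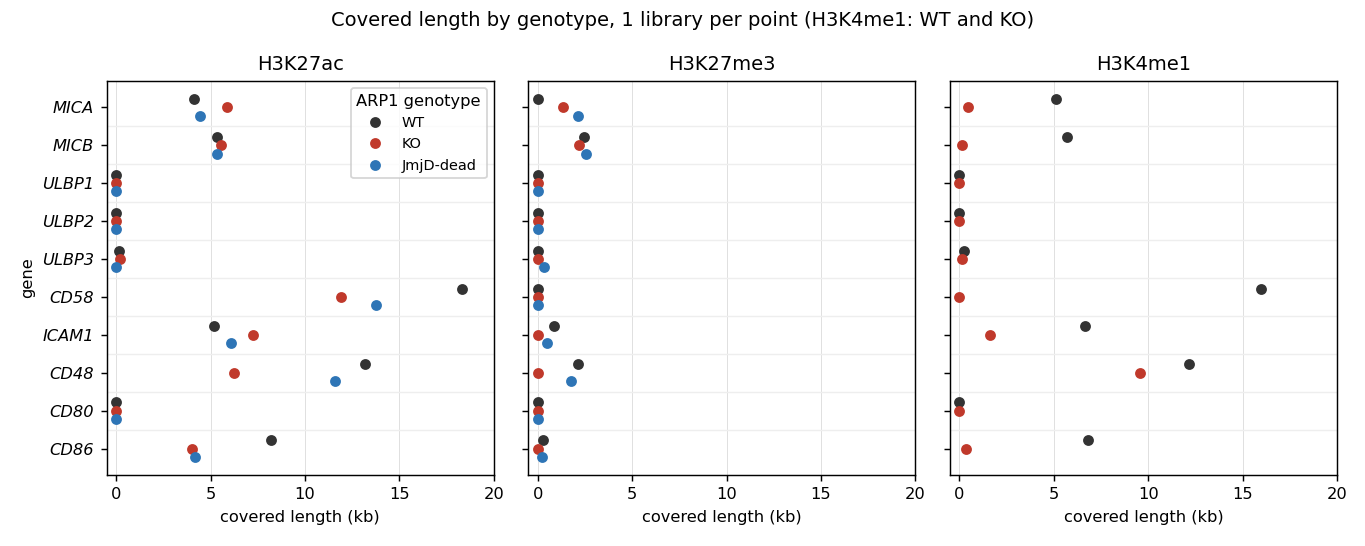
Covered length in kb of H3K27ac, H3K27me3 and H3K4me1 at each gene by ARP1 genotype, with 1 library per point. The H3K4me1 points of KO lie near 0 for all genes except CD48 and ICAM1, and the H3K27me3 points lie under 3 kb for every gene.

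H3K27me3, the mark that KDM6A removes, was listed at few members and with low scores. In WT it marked MICB, ICAM1, CD48 and CD86 (4 of 10, against 31.2% of genes), in KO MICA and MICB (2 of 10, against 22.9%) and in JmjD-dead cells 6 of 10 (44.7%), which were those 5 and ULBP3. No member region had a −log10 q above 9.20. Of 4 members that could be called, MICA covered more in KO (26.5% of 3394 genes did) and CD48 and ICAM1 covered less (53.0%). In JmjD-dead cells MICA covered more (73.7% of 5668 genes) and ICAM1 less (10.3%). Over the genes marked in WT that could be called the median ratio was 0.497 in KO (3070 genes) and 2.02 in JmjD-dead cells (4184). The difference is between whole lists. A gene under 500 bp in WT entered only where the mutant list reached 500 bp. The gene sets therefore differ, and such genes could only cover more in the mutant. The lists covered 7.67 Mb from 5.03 M fragments in WT, 5.97 Mb from 6.6 M in KO and 20.4 Mb from 10.4 M in JmjD-dead cells. With lists of equal length the medians were 0.65 and 1.05, and 45.7% of genes covered more in JmjD-dead cells.

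MICA had 0 bp of H3K27me3 in WT against 1330 in KO and 2157 in JmjD-dead cells, and its best regions ranked 1694 of 11865 and 10438 of 37236. CD48 had 2143 bp in WT against 0 in KO and 1756 in JmjD-dead cells. CD48 in KO thus had less cover of both H3K27ac and H3K27me3 than in WT. MICB had 2461, 2209 and 2541 bp, close to each other in the 3 genotypes. ICAM1 had 843 bp just upstream of its start in WT, none in KO and 470 bp at another place in JmjD-dead cells. CD58, CD80, ULBP1 and ULBP2 had none. H3K27ac of the same genotype overlapped 6 of the 11 member regions of WT, 5 of the 8 of KO and 9 of the 15 of JmjD-dead cells, against 64.4%, 70.8% and 50.6% of all H3K27me3 regions. Most H3K27me3 regions had no counterpart in the other genotype, at the members as over all regions. Of the 11 WT regions 9 had no KO region (74.8% of all) and 7 no JmjD-dead region (52.4%). Of the 8 KO regions 6 had no WT region (63.1% of all), as had 10 of the 15 JmjD-dead regions (79.6%).

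H3K4me1, a mark of enhancers, was listed at most members in both genotypes, over shorter lengths in KO. In WT it marked 7 of 10 members (78.1% of genes) and in KO 6 (60.1%). Of 6 members that could be called, 5 covered less in KO, as did 86.0% of 15119 genes, and none covered more (7.51%). The members are therefore like most genes here. CD58 had 15989 bp in WT and 0 bp in KO, and MICB had 5682 and 125 bp. MICA had 5140 and 451 bp, CD86 had 6808 and 359 bp, and ICAM1 had 6660 and 1642 bp. Of 49 WT regions at the members 38 had no KO region, against 75.3% of all, and 24 of 45 KO regions lacked a WT region, against 69.2%. The KO list as a whole covered 37.9 Mb against 71.8 Mb in WT, and 19.9% of its regions reached a −log10 q of 5, against 44.1% in WT.

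CD48 was the exception, with 12163 bp of H3K4me1 in WT and 9550 bp in KO. The WT cover was 10 regions with the best at −log10 q 255 (rank 1250 of 95729), and the KO cover was 31 short regions with the best at 14.1 (rank 2775 of 80845). The mean fold enrichment was 38.1 in WT and 5.32 in KO. With regions under a −log10 q of 5 left out, CD48 also covered less in KO by the 1.5 limit, so that all 6 members did, as did 95.6% of all genes. Regions of this KO list were dense around the gene. Within 500 kb of CD48 it held 315 regions, where the median over 1 Mb bins with a region in any list was 6, and the WT list held 72, where the median was 22. The KDM6A list of KO held 42 there (median 1) and that of WT 18 (median 11). The KO input list held 2 (median 3), and 1 of them lay in the CD48 window with the lowest −log10 q of that list, 1.48. The H3K27ac lists held 60 in WT against 59 in KO and 56 in JmjD-dead cells. The part of this density in the CD48 values was not tested. Around CD58 the KO H3K4me1 list held 0 regions.

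KDM6A regions of ARP1 WT without a KO region were listed at 5 of the 10 members, CD48, CD86, CD58, ULBP1 and ULBP2, against 34.4% of genes. Any KDM6A region was listed at 5 members in WT (36.8% of genes) and at 3 in KO (14.0%). The WT regions without a KO region were 7, as ULBP1 and ULBP2 share 1, and CD48 held 4 of them. Of the 7, 5 lay on WT H3K27ac, against 22.4% of all such regions, near a gene or not. The one at CD58 did so with 33 of its 265 bp. The strongest of the 7 lay over the start of CD48, on chromosome 1 at 160711794 to 160712245. It had a −log10 q of 22.2 and rank 4850 of 90964. A second, 2633 bp inside the gene, had a −log10 q of 6.09. Both overlapped HA regions of the tagged line and KDM6A regions of KARPAS. The KO library held 5 weak regions at CD48 (best −log10 q 4.6, rank 20134 of 44936), 1 of them 908 bp upstream of the start. The KO regions covered 1170 bp and the 4 WT regions 1167 bp, so covered length did not set KO apart from WT here. A WT region 14738 bp inside the gene also overlapped the background HA list, by 135 bp.

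The other KDM6A regions were weaker or had another setting. At CD86 a region 16342 bp past the downstream start (−log10 q 5.09, rank 45940) lay within an H3K27ac region of WT and within an HA region. At CD58 a region beyond the gene end had a −log10 q of 3.23. The region shared by ULBP1 and ULBP2, on chromosome 6 at 149954754 to 149955094, had a −log10 q of 8.21 and rank 26160, and no HA, KARPAS or histone mark region overlapped it. The best ULBP2 region, 2671 bp upstream of its start (−log10 q 15.4), was also listed in KO (−log10 q 8.25) and so was not counted.

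HA regions of the tagged line that the background HA list lacked were listed at CD48, CD86, CD58, MICA and MICB, 5 of 10 against 39.8% of genes. There were 17 such regions, and 15 of them (88.2%) lay on WT H3K27ac, as did 62.8% of all such regions in the genome, near a gene or not. CD86 held 7 of the 17 and CD48 held 5, so the member share rests mostly on these genes. WT H3K4me1 overlapped 16 of the 17. The highest ranked was again at the start of CD48, at 160711657 to 160712296, with a −log10 q of 34.4 and rank 2432 of 54338. At CD86 the best lay at 122093896 to 122095062 (−log10 q 23, rank 4794), inside the larger intragenic H3K27ac region of WT. At CD58 it lay at 116504303 to 116505066, past the gene end at the window edge (−log10 q 19.5, rank 5784). MICA had 1 region 2756 bp upstream of its listed start (−log10 q 12.9, rank 10645), and those at MICB had −log10 q of at most 4.52. Any HA region was listed at 5 members in the tagged line (44.0% of genes) and at 4 in the WT background (35.6%). The WT HA list held 1 or 2 regions at each of CD58, CD48, CD86 and MICB, with −log10 q of at most 3.77.

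In KARPAS, KDM6A regions were listed at CD48, CD86, CD58 and ICAM1, 4 of 10 against 54.9% of genes. CD86 held 12 and covered 4387 bp, where ARP1 WT held 2 and covered 692 bp. The best CD86 region, at 122091534 to 122092009, ranked 4446 of 55867 with a −log10 q of 46.6, and 1 region covered each listed start. The region over the upstream start had a −log10 q of 17.5 (rank 13616). The one over the downstream start was weak (−log10 q 2.91, rank 50918). CD48 held 8 regions and 5257 bp, with the best 2360 bp upstream of the start (−log10 q 57.1, rank 3073) and 1 over the start (−log10 q 33.0). CD58 held 4 regions, of which 2 lay on HA regions of ARP1, and ICAM1 held 1, 448 bp upstream of its start (−log10 q 10.7). Of the 25 KARPAS regions 11 lay on ARP1 WT H3K27ac, against 30.2% of all KARPAS regions, 9 overlapped an HA region of the tagged line and 2 an ARP1 WT KDM6A region. MICA, MICB, the ULBP genes and CD80 held none. The KARPAS library held 37.4 M tags and the ARP1 WT library 11.9 M, no background list of KARPAS was analysed here, and the difference between lines was not tested.

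**Figure D5:**
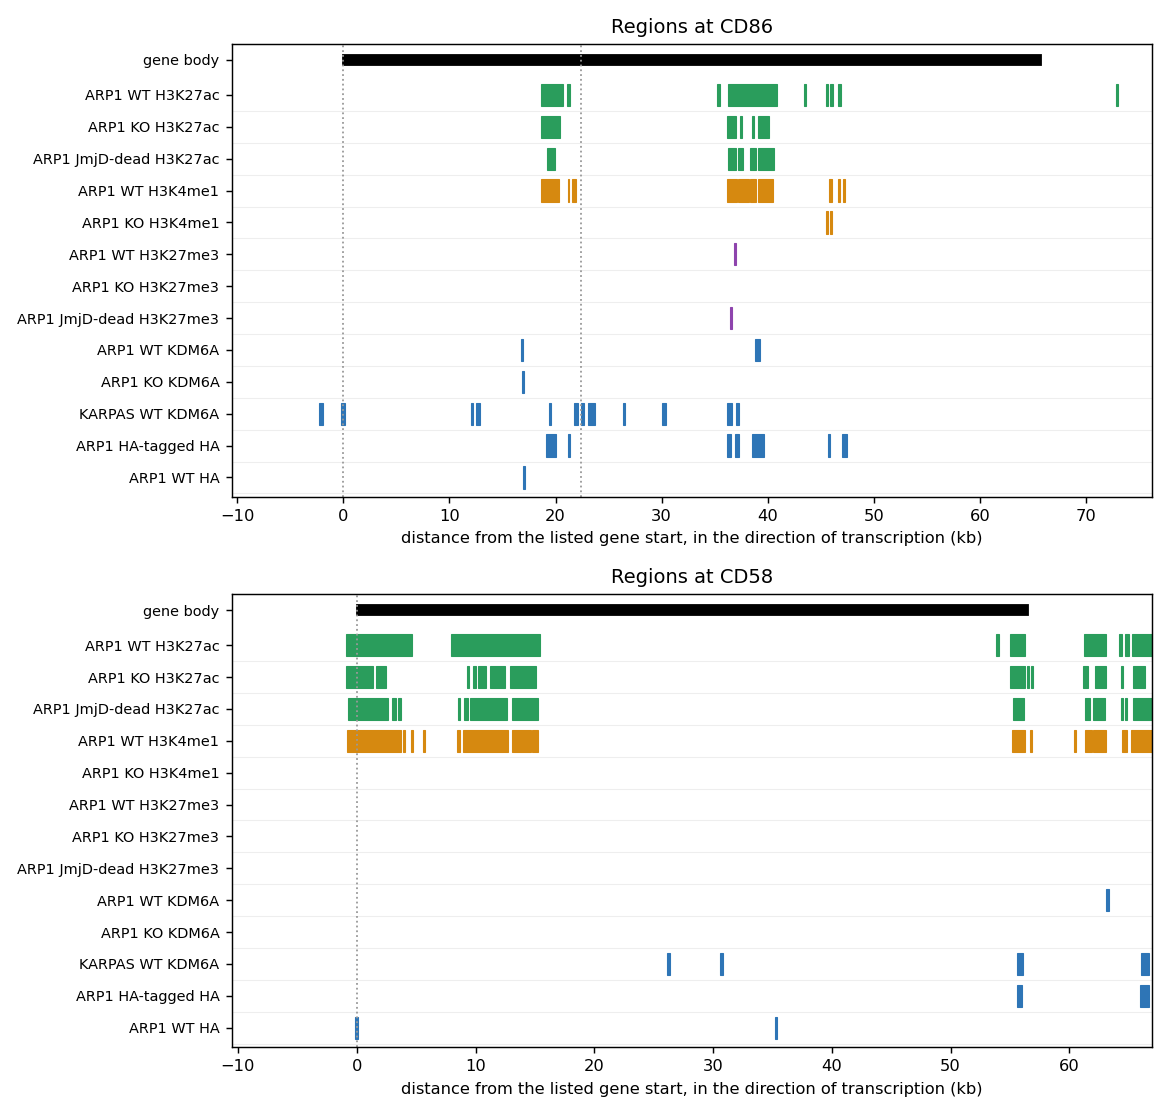
Regions at CD86 (top) and CD58 (bottom) in 13 lists, drawn to scale against the distance in kb from the upstream listed start, with starts dotted and the gene body in black. KARPAS regions cover both CD86 starts, where ARP1 lists no H3K27ac, and the one over the downstream start is weak (−log10 q 2.91). The HA regions of the tagged line overlap H3K27ac of WT at both genes, apart from 1 at CD86.

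Related genes were taken from a fixed list of 25 other NK ligands and adhesion genes. ICAM4 and ICAM5 of that list start inside the ICAM1 window and share regions with it. Each had 3902 bp of H3K27ac in WT and 5176 bp in KO. The counts below therefore do not treat separate regions throughout. In KO 4 of 15 that could be called covered more H3K27ac (14.3% of all genes) and 1 less (6.68%). NECTIN2, a ligand of the NK receptor DNAM-1, had 4416 bp in WT and 6974 bp in KO, and TNFSF9, the 4-1BB ligand, had 279 and 2057 bp. SLAMF7, a receptor on myeloma cells and NK cells, had 6569 bp in WT and 3528 bp in KO. In JmjD-dead cells 2 of 14 covered more (6.30%) and 1 less (7.44%). Of 9 genes for receptors of the members, 6 could be called for H3K27ac. In KO 1 covered more and 1 less, and in JmjD-dead cells 0 more and 2 less. HCST, CD2, CD28 and CTLA4 stayed within the limit in both mutants. ITGAL, the alpha chain of LFA-1, had 15850 bp in WT against 9311 in KO and 9072 in JmjD-dead cells. ITGB2, its beta chain, had 591 bp in WT against 3269 in KO and 69 in JmjD-dead cells. For H3K4me1 in KO, 11 of 16 of the ligand list covered less and 2 more. Of the receptors 5 of 8 covered less and 2 more. Of all genes 86.0% covered less and 7.51% more. The 2 receptors that covered more were KLRK1, the gene of NKG2D, and CD244. KLRK1 had 508 bp in WT and 867 bp in KO. CD244, a neighbour of CD48 on chromosome 1, had 124 bp in WT and 2518 bp in KO.

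The genes most like each member were sought over the 13 lists that are not input, by the distance between log2(covered bp + 500) profiles and leaving out genes within 1 Mb. For CD48 they were ETV6 (distance 1.69), SIK3 (2.00) and DDR2 (2.07), and the median over all genes was 7.88. The nearest genes lie below that median by the way they were picked, so it is no test of likeness. For CD86 the nearest were TBC1D7 (1.41), its readthrough TBC1D7-LOC100130357 (1.46) and WDR7 (1.49), and for CD58 TMSB4X (0.78), EVI2A (1.13) and EVI2B (1.15). MICA was nearest to CNIH2 (0.90), MICB to YIPF3 (1.39) and ICAM1 to RFXANK (0.87). ULBP3, with short regions in 5 lists, was nearest to PRL (0.58). The points share the same 13 libraries.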

How the data were processed

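The submitters' processing notes name GRCh38 as the build, Bowtie2, Trimmomatic, MultiQC and FastQC, and MACS2 2.1.2 as the caller. The versions per the file headers differ: MACS 2.2.7.1 for ARP1 input, H3K27ac and H3K27me3 and 2.1.1.20160309 for the others. Regions were called per library, without control or local background, at a q-value of 0.05. HA and KDM6A libraries were called as single-end tags extended to 200 bp. For each deposited region the authors give a pileup signal, a fold enrichment (ratio), and a −log10 p-value and −log10 q-value. Fold and −log10 q describe and rank regions within a list, and no call uses their difference between lists.

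Rows with shared coordinates were merged, and regions were ranked by −log10 q, then fold. Covered base pairs were summed within each RefSeq (GRCh38.p14) gene and 10 kb either side. They move with how much was called. Regions overlapped at 1 bp or more. Mouse libraries were not used here. The 10 genes were all named. The members and lists were chosen with earlier results of these data known. The count of regions within 500 kb was added after seeing the data. The overlap and rank functions were tested on simulated data (5 of 5 steps). Python 3.11.15, numpy 2.4.6, pandas 2.3.3 and matplotlib 3.10.9 were used.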

Additional observations from a re-analysis of the deposited data

How the results depend on the processing

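With 1 library per group, settings show how a count moves and not its error. The 3 genes with less H3K27ac in KO (CD48, CD86, CD58) were the same with a 2.5 kb window, equal list lengths, a −log10 q floor of 5 and without regions on input. With a ratio of 2 they were 2 (CD48, CD86; 3.33% of all genes), and the JmjD-dead count was 0 (3.35%). For H3K27me3 with that floor, only 2 members could be called in KO, 2 higher (MICA, MICB; 55.1% of all genes) and 0 lower (27%). In JmjD-dead cells 1 could be called, with 0 lower (15.9%) and 1 higher (71.7%), which was MICB in place of MICA. The JmjD-dead count lower was 2 with equal list lengths (CD48, ICAM1; 32.8% of all genes) and 0 with a ratio of 2 (7.82%). Members with a KDM6A WT-only region were 2 with a 2.5 kb window (CD48, CD86; 27.5% of all genes) and 3 with equal list lengths (CD48, ULBP1, ULBP2; 21.0%). Those counts of H3K27me3 and KDM6A thus depend on the setting, as do the shares of all genes beside them. All other counts stayed within 1.5 times. Equal lengths were not run for KARPAS, whose list is already the shorter. No paired analysis was possible because each group has 1 library. Tags and fragments limit the lists, and a gene without a region is not shown to lack the mark.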
